A study of Culter alburnus with 6 samples.

Results

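The spliceosome and RNA splicing factors of a fish cell line are described here from 160 of the 37532 assembled genes that were measured well enough to test. They were taken as the rows of the deposited table whose KEGG pathway was the spliceosome or whose protein name held the words splicing factor. Heat shock proteins, of which 6 rows carried the same pathway, were left out, and a row had to reach 1 TPM, a unit that scales reads for transcript length and for the total of the library, in at least 3 of the 6 libraries. Of 162 rows that met the first condition, 160 passed the second. The pathway alone gave 105 of them, the name alone gave 17, and 38 met both. The rows carried 127 distinct gene symbols, because 22 symbols had more than 1 row.

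The cells were TCCF2022, 1 wild-type line grown from the caudal fin of Topmouth culter (Culter alburnus) and labelled as fibroblasts. In the F group, cells were kept for 7 days in medium with 5 μM Forskolin, a plant compound that activates adenylate cyclase and so raises cAMP. In the CK group, cells were kept for the same time in the same medium, DMEM/F12 with fetal bovine serum, bFGF and antibiotics, without Forskolin. Each group had 3 RNA-seq libraries, described as biological replicates, and only 1 line was used.

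The spliceosome removes introns from pre-mRNA. It is built from small nuclear ribonucleoproteins (snRNPs), in which a small RNA is held in a ring of Sm or LSm proteins. U1 binds the start of the intron, U2 binds the branch site, the U4/U6 and U5 tri-snRNP then joins, and the Prp19 complex and a set of helicases bring the machine to its active form. SR proteins and hnRNPs bind the pre-mRNA and help to decide which sites are used, and the exon junction complex marks the joined exons for export and quality control. The roles given for single genes are known from mammals and yeast.

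Transcripts of this machinery were broadly but modestly more abundant in F cells. Together the 160 rows took 9401, 10563 and 9541 TPM in the F libraries, against 8094, 7999 and 7904 TPM in the CK libraries. The F sums averaged 9835 ± 634 TPM and the CK sums 7999 ± 95.0 TPM (SD, n = 3 each), a ratio of 1.23, and all 3 F sums lay above all 3 CK sums. This corresponds to 0.940 to 1.06% of all TPM in F and 0.790 to 0.809% in CK. The log2 change, always F minus CK on the log2(TPM + 1) scale, was above 0 in 138 of 160 rows (86.25%), and in 49.0% of all tested rows. The median change was 0.25 for the splicing rows and −0.01 for all tested rows. Most changes were small, with quartiles of 0.11 and 0.35 and a range of −0.74 to 1.50. The upward shift was not particular to the splicing rows. Among other tested rows with an RNA recognition motif 70.4% had a change above 0 (median 0.16). Among other rows with a helicase domain it was 81% (median 0.22), and among other rows with a splicing GO term 72.1% (median 0.12).

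**Figure D1:**
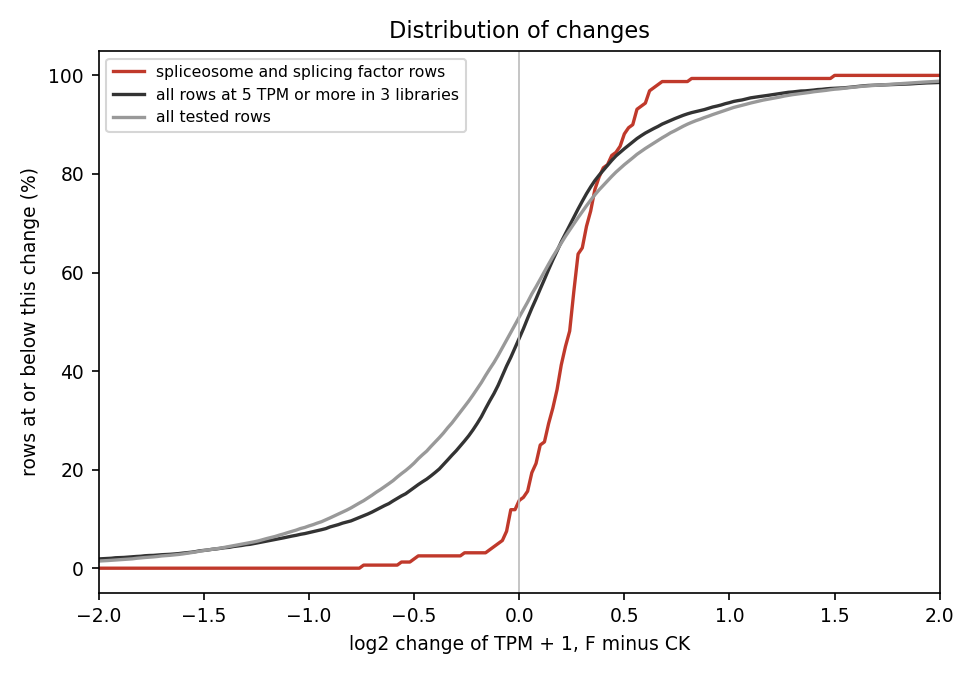
Cumulative share of rows (%) against the log2 change of TPM + 1, F minus CK, for the splicing rows (red), all rows at 5 TPM or more in 3 libraries (black) and all tested rows (grey), with no error drawn. The red curve is steep and lies right of 0 for most of its height: its median is 0.25, against −0.01 for all tested rows.

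Differences were tested by limma (two-sided) with p-values adjusted after Benjamini-Hochberg over all 37532 rows. In all, 27 of the 160 rows (16.875%) were higher in F at an adjusted p under 0.05, where 6.15% of all tested rows were. In the other direction 1 row, Rp9, was lower, where 6.07% of all tested rows were. Of other rows with an RNA recognition motif 13.4% were higher and 4.23% lower. Of other rows with a helicase domain 10% were higher and 2% lower. At an unadjusted p under 0.05, 70 of the 160 splicing rows were higher and 1 was lower, where 4872 and 4764 of the 37532 tested rows were. The excess of higher rows depended on the variance model: when eBayes was run without a trend of the variance with expression, 4 of 160 rows (2.5%) were higher, where 4.53% of all tested rows were. No splicing row also passed a log2 change of 1 in either direction, a limit that 3.27% of all tested rows passed as higher and 3.9% as lower, and the 1 row beyond that size, Srsf1 low row 1, missed the adjusted threshold. All 3 F libraries lay above all 3 CK libraries in 89 of 160 rows, where 16.4% of all rows did, and below them in 2 rows (Rp9 and Srsf11 row 3), where 15.7% of all rows did. Splicing rows are mostly well expressed, and among rows of 5 TPM or more, refitted on their own, 39 of 147 were higher where 13.9% of 15253 rows were, and 1 was lower where 12.2% were.

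These rows differed in level over a wide range, with a median of 37.6 TPM over the 6 libraries and 13 rows averaging below 5 TPM. The most abundant rows were Srsf6 row 1 at 510 ± 56.0 TPM in F and 469 ± 7.84 TPM in CK, and Ddx5 at 384 ± 58.1 TPM in F and 300 ± 7.85 TPM in CK. Of the 13 rows below 5 TPM none passed the test, and 5 of them had a change above 0. The called rows were thus among the well expressed ones.

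Within each group the libraries correlated at 0.891 to 0.896 in F and at 0.875 to 0.897 in CK (Pearson's r across genes, which are not independent replicates), and between groups at 0.828 to 0.857. Depth cannot be recovered from TPM, so no counting interval is given. No muscle marker of the planned list was measured. Of the fibroblast markers, 12 of 15 were measured, and their sum was 4925 to 7298 TPM in F and 9176 to 9634 TPM in CK. Among them 1 was higher (Dcn, 8.33%), where 6.15% of all tested rows were. In the other direction 4 were lower (Lum, Col6a1, Twist1 and Col1a2, together 33.3%), where 6.07% of all tested rows were. The row read for Vim, a defining fibroblast marker, stood at 10.6 ± 2.75 TPM in F and 11.6 ± 5.62 TPM in CK. Its protein name is vimentin like, and whether another row holds more vimentin was not tested. Of 11 epithelial markers 7 were measured, at a summed 5047 to 5594 TPM in F and 6376 to 6592 TPM in CK, nearly all of it the keratins Krt8 and Krt18. Beneath that sum Epcam (−1.40) and Cldn4 (−1.10) were lower (28.6% of the 7, where 6.07% of all tested rows were). As higher 1 of the 7 was called (14.3%, where 6.15% of all tested rows were). This was Grhl2 (1.26) at a very low level, 2.01 ± 0.312 TPM in F and 0.28 ± 0.356 TPM in CK. It met the filter only through the F libraries, so its call carries little weight. Of 7 markers each of pigment cells, leukocytes and endothelium 2 each were measured, and each pair summed to no more than 17.1 TPM in any library, with 1 of the 6, the leukocyte gene Cd74, called as higher (0.71). Their part in the splicing results was not tested, and in bulk RNA fewer cells of a type and less RNA per cell cannot be told apart.

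**Figure D2:**
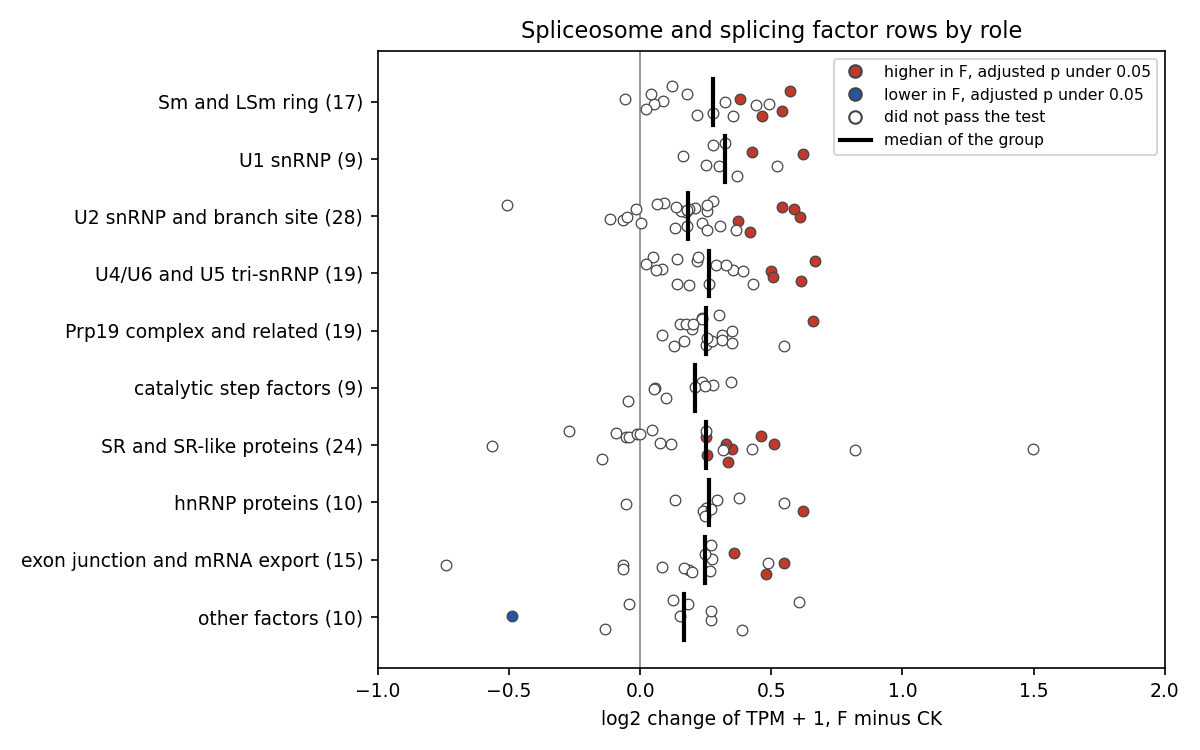
Log2 change of TPM + 1, F minus CK, of each of the 160 rows (points, spread vertically only for visibility), grouped by role with the number of rows in brackets and the group median as a bar. Red points passed the test as higher, the blue point (Rp9) as lower, and every group median lies above 0.

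The Sm proteins, which form the ring around the U1, U2, U4 and U5 RNAs, had 4 of 8 rows higher in F (50%, where 6.15% of all tested rows were). All 8 Sm rows had a change above 0, with a median of 0.42, and the other 4 did not pass the test. Snrpd1, the SmD1 subunit and the most abundant of these among those called, had 276, 249 and 257 TPM in F, against 187, 186 and 164 TPM in CK. The groups did not overlap, and the log2 change was 0.54 ± 0.080 (SE, limma adjusted p = 0.0099). Snrpf, the SmF subunit, had 69.6, 67.5 and 74.4 TPM in F and 51.6, 52.1 and 48.7 TPM in CK. Its libraries also separated fully (log2 change 0.47, limma adjusted p = 0.0096). The other called Sm rows were Snrpd3-like (0.57) and Snrpg (0.38). Snrpd3 (0.35, limma adjusted p = 0.0505) and Snrpd2 (0.49, limma adjusted p = 0.0551) lay just outside the threshold, and Snrpe and Snrpb had changes of 0.32 and 0.28.

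The LSm proteins, relatives of the Sm proteins that form the ring on U6, had no called row among 9. Of all tested rows 6.15% were higher and 6.07% lower, so a lack of calls in only 9 rows is close to those shares. None passed at an unadjusted p under 0.05 either, where 4872 of the 37532 tested rows were higher and 4764 lower. Their median change was 0.09. F and CK overlapped in every one, where 16.4% of all rows had all F libraries above and 15.7% below. Lsm3 row 3 and Lsm4 row 2 averaged below 5 TPM. Lsm4 row 1, the most abundant, averaged 159 ± 16.1 TPM in F and 140 ± 3.70 TPM in CK, and Lsm8 averaged 95.3 ± 16.4 TPM in F and 90.9 ± 2.43 TPM in CK. Whether the Sm and LSm rows differ from each other was not tested. F replicate 2 was lower than the other F libraries in most LSm rows, and without it their median was 0.20, still with none called. The Sm rows then had a median of 0.47 with 6 of 8 called as higher, where 4.2% of all tested rows were.

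The U1 snRNP group showed a change above 0 in all 9 rows (median 0.33), and 2 passed as higher (22.2%, where 6.15% of all tested rows did). Snrpc, the U1-C protein that helps U1 to hold the start of the intron, had 82.7, 96.7 and 79.6 TPM in F, against 55.1, 58.3 and 53.7 TPM in CK. Every F library was far above every CK library, with a log2 change of 0.62 ± 0.091 (SE, limma adjusted p = 0.0097). Snrpa, the U1-A protein that binds a stem-loop of U1 RNA, was tight within each group at 36.8, 36.7 and 36.0 TPM in F and 28.1, 26.7 and 25.9 TPM in CK (log2 change 0.43, limma adjusted p = 0.0124). The third core protein, Snrnp70, did not pass. It had 69.2, 103 and 71.0 TPM in F and 66.8, 64.0 and 65.6 TPM in CK, with F replicate 2 well above the other 5 libraries.

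In the U2 and branch site group 5 of 28 rows were higher (17.9%, where 6.15% of all tested rows were). A change above 0 was seen in 23 of the 28 (median 0.18), and in 49.0% of all tested rows. Snrpb2, the U2-B″ protein, had 56.6, 73.0 and 59.8 TPM in F and 42.4, 40.7 and 39.5 TPM in CK (log2 change 0.61, limma adjusted p = 0.0173). Sf3a2 and Sf3b4, subunits of the SF3A and SF3B parts of U2, had changes of 0.54 and 0.59, with the F and CK libraries apart in both. The other called rows were Puf60 (0.42), a relative of U2af2 that helps to recognise the end of the intron, and U2af1 row 1 (0.37), the small U2AF subunit that contacts the last bases of the intron. The rest of SF3A and SF3B was less moved, with Sf3a1 at 0.37, Sf3b2 at 0.26, Sf3b6 at 0.21 and Sf3a3 at −0.06, none of which passed.

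The tri-snRNP group held the row with the smallest adjusted p of all 160. Snu13, a small protein that binds the U4 RNA and also box C/D nucleolar RNAs, was present as a pair of rows. The row named NHP2-like had 139, 130 and 131 TPM in F, against 80.1, 86.5 and 84.6 TPM in CK. It was 1.59 times as high in F, with tight groups that did not overlap (log2 change 0.67 ± 0.063, SE, limma adjusted p = 0.0023). The other row, Snu13a, had 71.7, 87.3 and 80.0 TPM in F and 51.6, 60.6 and 56.0 TPM in CK (log2 change 0.50, limma adjusted p = 0.0258). Ppih, a cyclophilin that sits on U4/U6 beside Prpf3 and Prpf4, rose with a change of 0.62, and Prpf38a, needed to activate the complex, with 0.51. Prpf8, the large protein at the catalytic centre, was not called at 67.2 ± 9.55 TPM in F and 58.5 ± 2.27 TPM in CK (0.19), nor was the unwinding helicase Snrnp200 (0.33). All 19 rows of the group had a change above 0.

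Of the Prp19 complex and its partners all 19 rows also had a change above 0 (median 0.25), and 1 was called. That was 5.26% of the rows, near the 6.15% of all tested rows called as higher. Ppil1, a cyclophilin bound to Snw1 in the active complex, had 48.5, 48.3 and 49.1 TPM in F and 30.9, 31.5 and 28.9 TPM in CK. The F libraries differed by less than 1 TPM from each other, and the log2 change was 0.66 ± 0.066 (SE, limma adjusted p = 0.0028). Prpf19 itself, the ubiquitin ligase of the complex, had 72.0, 92.5 and 67.3 TPM in F and 55.4, 54.4 and 46.8 TPM in CK and missed the threshold (0.55, limma adjusted p = 0.0517).

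The factors of the catalytic steps, mostly helicases and step-specific proteins, had no called row among 9, with a median change of 0.21. At an unadjusted p under 0.05, 3 of the 9 were higher, where 4872 of the 37532 tested rows were. Ddx5, an RNA helicase with many roles in RNA processing, had 356, 451 and 345 TPM in F and 306, 291 and 302 TPM in CK, with no overlap (0.35, limma adjusted p = 0.110). Slu7, which acts in the choice of the 3′ splice site, had a change of 0.28 and missed the threshold (limma adjusted p = 0.064).

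**Figure D3:**
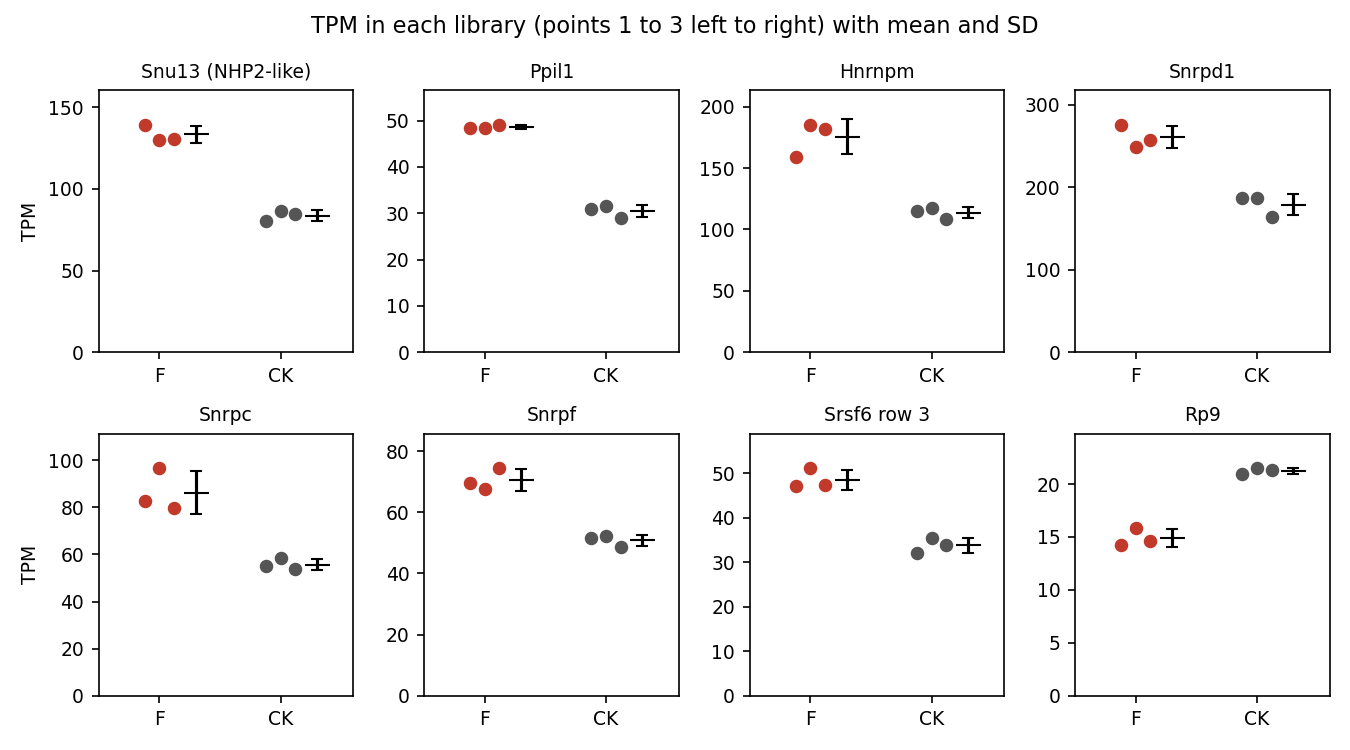
TPM in each of the 3 F (red) and 3 CK (grey) libraries for 7 rows that stayed past the threshold when any 1 library was left out and for Rp9, which did not in every case, with mean and SD beside the points. The F points of the first 7 panels all lie above the CK points, and those of Rp9, at 14.3 to 15.9 TPM, all lie below.

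SR proteins, which carry serine-arginine repeats and bind exons to promote splicing, had 7 of 24 rows called. That was 29.2%, where 6.15% of all tested rows were higher. It was the largest count of any group but not the largest share, as 50% of the Sm rows were called. All 7 were higher: Srsf6 row 3 (0.51), Srsf1a (0.46), Srsf10b (0.35), Tra2a (0.34), Srsf9 (0.33), Tra2b (0.25) and Srsf5a (0.25). Most of these calls were fragile. When 1 of the 6 libraries was left out, Tra2a, Srsf9 and Srsf5a passed in no case and Srsf10b and Tra2b in 1. With eBayes run without the trend none of the 7 passed (limma adjusted p = 0.0604 to 0.260). Srsf5a was among the most abundant, with 314, 328 and 322 TPM in F and 273, 278 and 259 TPM in CK. Its groups did not overlap, yet the difference was only 1.19 times (limma adjusted p = 0.0458). Srsf2 (0.32, limma adjusted p = 0.0522) and Srsf3 (0.25, limma adjusted p = 0.0594) lay just outside. Srsf4 was at 78.3 ± 10.9 TPM in F and 80.9 ± 1.96 TPM in CK.

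Rows that share an SR symbol did not all move alike. Such rows can be paralogs, alleles or pieces of 1 transcript, and the assembly may have split reads between them, so each is uncertain on its own. Srsf1a had 118, 128 and 110 TPM in F and 87.1, 80.4 and 89.8 TPM in CK, while Srsf1b had 27.0, 28.0 and 23.8 TPM in F and 26.8, 28.4 and 32.1 TPM in CK. Srsf1a was thus higher in every F library, and Srsf1b overlapped between the groups. The ratio of Srsf1a to Srsf1b was 4.40, 4.57 and 4.61 in F and at most 3.24 in CK, a log2 difference of 0.62. An exact two-sided permutation test of this ratio gave p = 0.1, the smallest that 3 libraries against 3 allow.

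For Srsf6, row 3 had 47.1, 51.1 and 47.3 TPM in F and 32.1, 35.4 and 33.9 TPM in CK (limma adjusted p = 0.0092). Rows 1 and 2 of the same symbol had changes of 0.12 and 0.05 and overlapped, so the most abundant Srsf6 row did not carry the call. The ratio of row 3 to row 1 was 0.0898 to 0.103 in F and 0.0677 to 0.0770 in CK. Ratios also lay apart between the groups for Srsf5a to Srsf5b, Srsf7 row 1 to row 2 and Srsf10b to Srsf10 row 2, each at the same smallest exact p of 0.1. In these 3 pairs the more abundant row was the relatively higher one in F, whereas for Srsf6 it was row 3, the least abundant of the 3. The 9 ratios computed in all were not adjusted, since none could pass. The pairs were picked by hand. For Srsf1, Srsf5, Srsf6 and Srsf10 a called row was set over a row that was not called. Separation of these ratios follows in part from that choice and is no separate support. The Srsf5 ratios were barely apart, with 5.03 in F replicate 2 and 4.98 in CK replicate 2.

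The largest change of any splicing row was in a weakly expressed one. Srsf1 low row 1 had 14.9, 4.80 and 10.9 TPM in F, against 1.48, 3.50 and 3.38 TPM in CK. All F values were higher but far apart from each other, and the change of 1.50 did not pass (limma adjusted p = 0.080). The other 3 low Srsf1 rows stayed between 0.5 and 3.45 TPM and overlapped between the groups.

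**Figure D4:**
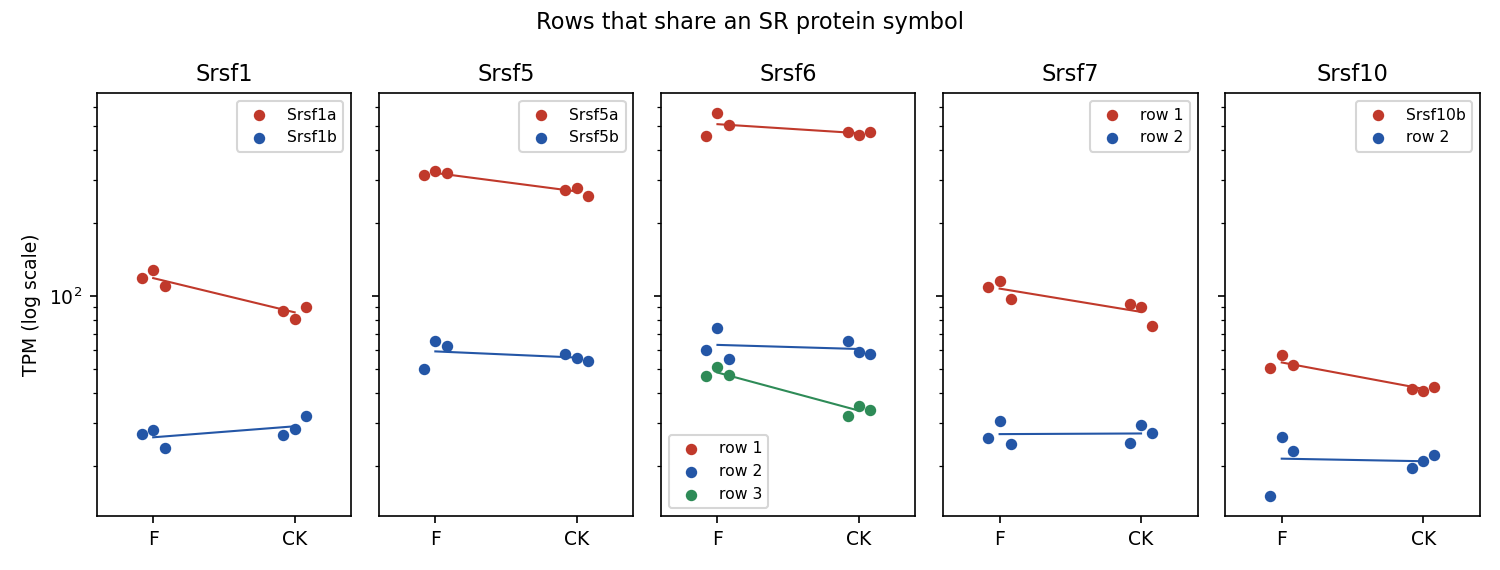
TPM on a log axis in the 3 F and 3 CK libraries (points) for rows that share the symbol Srsf1, Srsf5, Srsf6, Srsf7 or Srsf10, with lines joining the group means. The line of Srsf1a is higher at F while that of Srsf1b is not, and of the Srsf6 rows only row 3 has F and CK points apart.

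The hnRNPs bind nascent RNA and often oppose SR proteins. In this group 9 of 10 rows had a change above 0 (median 0.26), and 1 passed. That was 10%, where 6.15% of all tested rows passed as higher, and 10.7% of those at 5 TPM or more in 3 libraries. The count is thus near the share of rows of such a level. Hnrnpm, which binds GU-rich stretches and regulates alternative exons, had 159, 185 and 182 TPM in F and 115, 117 and 109 TPM in CK. The F libraries all lay above the CK libraries, at 1.55 times the level (log2 change 0.62 ± 0.080, SE, limma adjusted p = 0.0065). Hnrnpa1, a general splicing repressor, had 78.7, 120 and 93.6 TPM in F and 65.7, 65.0 and 65.5 TPM in CK. It did not overlap either, but its F values were far more spread than its CK values, and it missed the threshold (0.55, limma adjusted p = 0.0691).

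Among 15 exon junction and export rows 3 were higher (20%, where 6.15% of all tested rows were). The 3 were Rbm8a and Eif4a3, a pair of core subunits of the exon junction complex, and Ncbp1, the large subunit of the nuclear cap-binding complex. These calls were fragile, as each passed in 1 of the 6 fits with 1 library left out. Rbm8a had 251, 318 and 261 TPM in F and 203, 185 and 175 TPM in CK (log2 change 0.55, limma adjusted p = 0.0271). Eif4a3, the helicase that anchors the complex on RNA, had 154, 155 and 142 TPM in F and 120, 122 and 109 TPM in CK (log2 change 0.36, limma adjusted p = 0.0288). Neither overlapped. The remaining core subunit measured, Magoh, had 145, 140 and 143 TPM in F and 126, 125 and 103 TPM in CK and did not pass (0.27, limma adjusted p = 0.118). The cap-binding partner Ncbp2 had a change of 0.27 that did not pass, beside 0.48 for Ncbp1.

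Rp9, a protein linked to retinal degeneration in humans and known in mammals as a partner of the kinase Pim1, was the sole called row in the other direction. It had 14.3, 15.9 and 14.6 TPM in F, against 20.9, 21.5 and 21.3 TPM in CK. No F library reached the CK range, and the level in F was 0.701 times that in CK (log2 change −0.49 ± 0.082, SE, limma adjusted p = 0.0153). Leaving out any 1 library kept the sign, and the adjusted p was between 0.0181 and 0.0800. Taf15, an RNA-binding protein that also associates with the transcription machinery, had the largest change of the remaining factors, with 137, 219 and 152 TPM in F and 109, 109 and 108 TPM in CK (0.60, limma adjusted p = 0.0756).

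F replicate 2 stood apart from the other F libraries in these genes, and not in these alone. It was the highest of the 6 libraries in 102 of 160 splicing rows (63.75%), where it was the highest in 25.5% of all tested rows and in 34.97% of those at 5 TPM or more. Among other tested rows with an RNA recognition motif it was the highest in 66.9%, and among other rows with a helicase domain in 71%. The median of the splicing rows relative to their CK mean was 0.18 in F replicate 1, 0.33 in F replicate 2 and 0.18 in F replicate 3. Over all tested rows the same median was −0.00098, 0.070 and −0.043, so part of the excess of F replicate 2 was shared by all rows. The group medians moved in different directions in this library. In the U1 group it stood at 0.61, beside 0.25 and 0.16 in the other F libraries, and it was the highest library in all 10 hnRNP rows. In the LSm rows it stood at −0.25, beside 0.17 and 0.23, and in the Sm rows at 0.30, beside 0.47 and 0.49. Without this library 24 of 160 rows were higher, where 4.2% of all tested rows were, and 19 of these were among the 27. Of the 28 called rows 8 were lost without it. The median was then 0.18, and 1 row, Srsf1 low row 1, passed a log2 change of 1 (1.91, limma adjusted p = 0.0349).

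**Figure D5:**
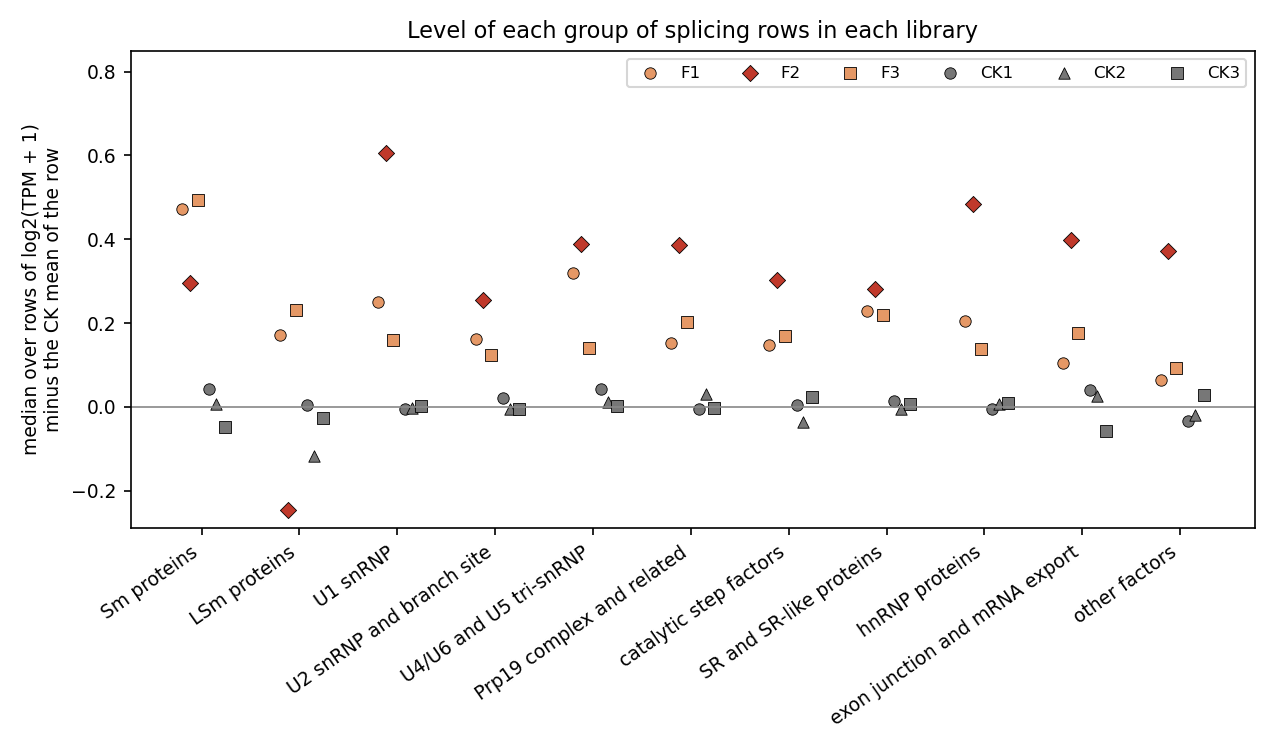
Median over the rows of each group of log2(TPM + 1) minus the CK mean of the row, for the 3 F libraries (orange, and red diamonds for F replicate 2) and the 3 CK libraries (grey). F replicate 2 is the highest library in most groups, at 0.61 for U1, and the lowest for the LSm proteins, at −0.25.

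Calls of single rows rested on few libraries. Of the 28 called rows, 7 passed the threshold whichever of the 6 libraries was left out, namely Snu13 (NHP2-like), Ppil1, Hnrnpm, Snrpc, Snrpd1, Snrpf and Srsf6 row 3. Tra2a, Srsf9, Srsf5a and Prpf38a passed in none of the 6 cases. Rbm8a, Eif4a3, Ncbp1, Snu13a, Puf60, U2af1 row 1, Snrpg, Srsf10b and Tra2b passed in 1 each. Leaving out CK replicate 2 left the fewest called rows, 7 higher, where 2.48% of all tested rows were, and leaving out CK replicate 3 left 8, where 3.1% of all tested rows were. Without CK replicate 1 or F replicate 1 it was 12 in each case, where 3.2% and 3.04% of all tested rows were, and without F replicate 3 it was 20, where 5.18% were. The median change stayed between 0.18 and 0.27 in all 6 cases.

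Genes around the spliceosome were each read from their most abundant row only, here and in the lists that follow. Of 19 measured genes of snRNP assembly, 3 were higher (15.8%) and none was lower, where 6.15% and 6.07% of all tested rows were. A change above 0 was seen in 17 of the 19 (median 0.19), and in 49.0% of all tested rows. Prmt5, the methyltransferase that modifies Sm proteins before they are loaded, had 44.3, 45.2 and 38.8 TPM in F and 27.7, 27.8 and 26.1 TPM in CK, without overlap (log2 change 0.63, limma adjusted p = 0.0071). Coil, the scaffold of Cajal bodies where snRNPs mature, had 14.3, 18.1 and 14.2 TPM in F and 8.45, 9.56 and 9.59 TPM in CK (0.69, limma adjusted p = 0.0216). Snupn, which carries assembled snRNPs into the nucleus, was the other called gene (0.47), and Smn1, the core of the assembly complex, had a change of 0.43 that did not pass.

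The tissue-restricted and general splicing regulators outside the pathway, 27 of 44 measured, included 2 higher and 1 lower (median 0.12). These shares, 7.41% and 3.7%, were near or below the 6.15% and 6.07% of all tested rows. Ptbp1, a repressor of many alternative exons, had 109, 138 and 101 TPM in F and 69.3, 73.7 and 77.1 TPM in CK (0.64, limma adjusted p = 0.0226). Khdrbs1, the RNA-binding protein also called Sam68, had 306, 387 and 309 TPM in F and 249, 209 and 208 TPM in CK (0.59, limma adjusted p = 0.0312). Rbfox1, a regulator of exons in muscle and neurons of mammals, went the other way, with 34.2, 49.4 and 41.4 TPM in F and 63.8, 69.9 and 69.8 TPM in CK (−0.70, limma adjusted p = 0.0233). None of these 3 genes overlapped between the groups.

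Of 15 splicing kinases and phosphatases measured none was higher (1 at an unadjusted p under 0.05, where 4872 of the 37532 tested rows were). In the other direction 1 was lower (6.67%, near the 6.07% of all tested rows). It was Pim1, a kinase known mainly from cell survival signalling, at 9.71 ± 3.01 TPM in F and 25.1 ± 1.39 TPM in CK (−1.32, limma adjusted p = 0.0144). The minor spliceosome, which removes a rare class of introns, had no called gene among 9 measured (median 0.14). At an unadjusted p under 0.05, 1 of the 9 was higher, where 4872 of the 37532 tested rows were. In nonsense-mediated decay, the pathway that reads exon junctions to destroy faulty mRNAs, 1 of 9 measured genes was called. It was lower (11.1% of the genes, where 6.07% of all tested rows were). Upf2, which links Upf1 to the exon junction complex, had 16.0, 18.7 and 14.0 TPM in F and 32.6, 29.5 and 31.1 TPM in CK, so that no F library came near the CK range (−0.90, limma adjusted p = 0.0066). Of 147 other tested rows with a splicing GO term, 9 were higher (6.12%, near the 6.15% of all tested rows) and 2 were lower, with a median of 0.12.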

How the data were processed

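RNA of TCCF2022 cells was measured in 6 libraries, 3 with Forskolin (F) and 3 without (CK). The deposited values are TPM per assembled gene, which the authors describe as made with RSEM on a de novo Trinity assembly. The submitters' processing notes list DESeq2 1.24.0, Cufflinks 2.2.1, TopHat2 2.1.1 and RSEM 1.3.3, and the route to the values is not settled. The table holds no columns of reads, and genes were not placed on a genome here. The Forskolin dose is that of the sample labels, which the paper's description of the RNA-seq experiment also gives.

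Symbols are Swiss-Prot gene names of the best protein match, from other species, and 10 splicing rows were named by hand from their NR or KEGG names. Splicing rows that share a symbol were numbered. In the context and marker lists only the most abundant row of each symbol outside the splicing rows was kept, and its other rows were not examined. Some context and marker rows carry another NR name than their symbol, among them Twist1 (a twist3), Vim (vimentin like) and Mitf (a TFE3). In the splicing context lists they include Hnrnph1 (an hnRNP H3), Dyrk2 (a DYRK3), Srpk2 (an SRSF protein kinase 3) and Celf3 (a regulation of nuclear pre-mRNA domain protein). The counts of those lists thus include rows that are other genes by NR name.

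On the log2 scale, after adding a pseudocount of 1, TPM went into limma 3.58.1 (R 4.3.3; lmFit without covariates, then eBayes with a mean-variance trend) for the 37532 rows with 1 TPM or more in at least 3 libraries. Tests were two-sided with Benjamini-Hochberg adjustment over these rows, at 0.05. No set test was run. Named rows are the up to 4 with the smallest adjusted p and the most abundant of each role or context list, every SR row, and rows sharing a symbol with a called row. The text prints some of these, and Sf3a1, Sf3b2, Sf3a3, Snrpd2, Snrpe, Snrpb, Lsm4 row 1, Lsm8, Snrnp200, Prpf8 and Magoh, which the rule did not give, were chosen after their values were seen. Members and lists were chosen with earlier results of these data known. As alternatives, each library was left out in turn, rows of 1 symbol were summed, the replicate number was used as a block, eBayes was run without the trend, values were rescaled by quantiles or by median-of-ratios factors, the filter was dropped or set at 5 TPM, and the pseudocount was set at 0.1. The procedure was run on simulated data with planted changes larger than the median change of the splicing rows, and with rows drawn independently. That run does not cover smaller changes or a shift shared by many rows of 1 library. Tables were made with Python 3.11.15, pandas 2.3.3 and NumPy 2.4.6, and drawn with matplotlib 3.10.9.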

Additional observations from a re-analysis of the deposited data

How the results depend on the processing

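The median change of the splicing rows stayed between 0.24 and 0.26 under each alternative that kept all libraries, and was 0.18 to 0.27 with 1 library left out. The count of higher rows was more fragile. It was 26 with a pseudocount of 0.1 (5.74% of all rows were higher), 20 without a filter (2.68%), 39 of 147 with a filter at 5 TPM (13.9%), 31 with median-of-ratios scaling (6.77%), 34 with quantile normalization (7.1%) and 22 of 129 with TPM summed per symbol (5.62%), above the share of all rows in each case. Under eBayes without trend it was 4 of 160 (2.5%), below the 4.53% of all rows, with none lower, and the cause was not tested. With 1 library left out it was 7 to 24, with 0 to 1 lower and 0 to 1 past a log2 change of 1, from fewer samples. Deviations of same-numbered F and CK libraries from their group means were barely correlated (0.0055, 0.0090 and 0.0061). Libraries of unlike number had −0.0067 to 0.00024. These values cannot show whether libraries of the same number were grown or handled together. With the replicate block 7 rows were higher (4.375%, against 2.51% of all rows) and 0 lower (2.85% of all rows). Of the 28 calls, 4 passed under each of the 13 alternatives that kept rows of a symbol apart, those of Snu13 (NHP2-like), Ppil1, Snrpc and Hnrnpm. With TPM summed per symbol, the calls lost included those of Srsf6, Srsf10 and Srsf5 (limma adjusted p = 0.435, 0.177 and 0.0775). Over all 160 rows, 138 had a change above 0 in the main fit and 130 without F replicate 2. Among the named rows traced through these alternatives, changes of sign were limited to rows near 0 that did not pass. With TPM summed per symbol Srsf7 was at 0.24 and Srsf10 at 0.25. With 1 library left out Srsf7 row 2 ranged from −0.098 to 0.050, Srsf10 row 2 from −0.16 to 0.23, Srsf4 from −0.16 to 0.016, Srsf6 row 2 from −0.069 to 0.14 and Upf3b from −0.062 to 0.21. The precision is limited by 3 libraries a group.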
